A study of Mus musculus with 31 samples.

Results

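Natural killer (NK) cells that lack CIS were compared after 24 h and after 4 h of culture with the cytokine TGFB1, to follow the course from the early to the late response. The comparison held 4 libraries at 24 h and 4 at 4 h, of 31 libraries in the study. It covered the 9749 autosomal genes that passed a filter on low counts, of 10275 genes tested and 27179 in the count table. RNA was taken from sorted mouse NK cells and sequenced from strand-keeping libraries. The genotypes used here are labelled CIS_KO, TGFBRII_KO and WT. The CIS KO groups were 24 h with TGFB1 (4 libraries), 4 h with TGFB1 (4 libraries) and unstimulated (4 libraries). TGFBRII KO cells at 24 h and 4 h (3 libraries each) and WT cells at 24 h (4 libraries) and 4 h (2 libraries) entered the tests of a difference between genotypes. The allele, the promoter of any Cre, strain, age, sex, the dose of TGFB1 and the other cytokines of the culture are given in none of the sources used here. No 24 h culture of CIS KO cells without TGFB1 was analysed here, so time in culture and time in TGFB1 cannot be told apart within this genotype.

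NK cells, lymphocytes of the innate immune system, kill infected or transformed cells with perforin and granzymes and secrete interferon gamma. TGFB1 binds the receptor pair TGFBR2 and TGFBR1, which phosphorylates SMAD2 and SMAD3. In NK cells this lowers cytotoxic and proliferative programmes and raises genes of tissue-resident lymphocytes, among them the integrin gene Itgae. CIS, encoded by Cish, is an inducible inhibitor of cytokine receptor signalling that restrains the response of NK cells to interleukin 15. The study asks how loss of CIS and loss of TGF-beta signalling act on NK cells.

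The CIS KO libraries were shallow and differed in depth, which touches every comparison below. They held 590009 to 1403005 counts at 24 h and 442036 to 798891 counts at 4 h. Replicate 2 at 24 h was the deepest and stood apart from the other 24 h libraries, with a chi-square per degree of freedom of 3.75 to 6.32 against each of them, where the other pairs at 24 h reached at most 1.59. In 11 of 40 within-group pairs over the whole study, the chi-square test found no difference between 2 libraries beyond the sampling noise. Such pairs occurred in 7 of 9 groups, the labels call them biological replicates, and they were kept as separate samples here. In TGFBRII KO cells at 24 h every pair was of this kind, with a chi-square per degree of freedom of 0.999, 0.795 and 0.772. The fit shared the spread of each gene over all 9 groups. That spread may therefore be too small in every comparison, those within CIS KO cells included. The averaging of such pairs given below covered CIS KO libraries only, so it does not check the comparison with TGFBRII KO cells for this. The Cish level, the check of the genotype, was 47 to 56.1 CPM (read counts scaled to library size with TMM factors) at 24 h and 35.7 to 49.4 CPM at 4 h in CIS KO cells, below the 180.2 to 248 CPM at 24 h and 204 to 289 CPM at 4 h of WT cells. Xist was at 0 to 5.22 CPM in the CIS KO libraries and at 115 to 222 CPM in the WT libraries at 24 h and 4 h. Summed Y-linked genes were at 392 to 558 CPM in CIS KO libraries with TGFB1 and at 1.48 to 124 CPM in those WT libraries. The TGFBRII KO libraries at 24 h and 4 h held both, with Xist at 12.6 to 131 CPM and the Y-linked genes at 195 to 451 CPM. Genotype and sex therefore cannot be told apart in either comparison between genotypes, and the results are limited to autosomes. Tgfbr2 was at 225 to 245 CPM at 24 h and 199 to 276 CPM at 4 h in TGFBRII KO cells, so the count over the whole gene does not check that label. Of the NK cell markers, 13 of 13 were detected, with a summed level of 3312 to 5308 CPM at 24 h and 4828 to 6599 CPM at 4 h. Of 12 T cell markers only Cd5 was at 0 in all 8 libraries, and the list summed to 661 to 706 CPM at 24 h and 678 to 717 CPM at 4 h. Cd79a, Ms4a1 and Pax5 were at 0 among 10 B cell markers (92 to 171 CPM at 24 h and 81.5 to 93.9 CPM at 4 h). The myeloid genes Adgre1, Lyz2 and S100a9 were at 0 among 14 markers, which summed to 161 to 232 CPM at 24 h and 146 to 200.2 CPM at 4 h. The erythroid and platelet list summed to at most 7.8 CPM at 24 h and 5.09 CPM at 4 h. Il5, Il13, Il17a and Il22 were at 0 among 10 markers of other innate lymphoid cells (169 to 245 CPM at 24 h and 215 to 272 CPM at 4 h). Cdh5, Col1a2, Kdr and Krt8 were at 0 among 12 stromal markers (346 to 372 CPM at 24 h and 381 to 487 CPM at 4 h). The part of the detected markers in the results was not tested.

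At 24 h, 763 autosomal genes were higher than at 4 h and 749 were lower in CIS KO cells, 7.83% and 7.68% of the 9749 tested (edgeR's quasi-likelihood test, adjusted p under 0.05 over all genes). These 7.83% and 7.68% are the shares to set beside the list counts for CIS KO cells below. The median log2 change over all 9749 genes was 0.02. The libraries of the 2 times did not overlap for 1556 genes, 16.0% of those tested, and for 72.9% of the called genes. The change ran with abundance: genes under 20 CPM had a median log2 change of 0.31, those at 20 to 100 CPM 0.12, those at 100 to 500 CPM -0.12, and the 81 genes at 500 CPM or more -0.34, with 32 of these lower and 0 higher. With log2 library size as a covariate these medians were 0.11, 0.04, -0.04 and -0.12, and the counts were 417 higher and 612 lower, with 796 genes called in both fits. In the 2 shallowest libraries at 24 h and the 2 deepest at 4 h, called depth-matched below, 143 genes were higher and 240 lower. This fit kept only 2 CIS KO libraries at each time, so calls lost through fewer libraries and through depth cannot be told apart. Normalization by library size alone gave 1148 higher and 490 lower and a median of 0.13 over all genes, and DESeq2 gave 355 higher and 557 lower. Averaging the pair of libraries at each time that differed least, replicates 1 and 3 at 24 h and 2 and 4 at 4 h, gave 368 higher and 433 lower. Leaving out replicate 2 at 24 h gave 409 higher and 608 lower. Leaving out replicate 2, 3 or 4 at 4 h gave 451 higher and 479 lower, 450 and 564, and 471 and 500. Values with the covariate and in the depth-matched libraries are therefore given beside most of the gene groups. The part of depth in any one change beyond these values was not tested.

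**Figure D1:**
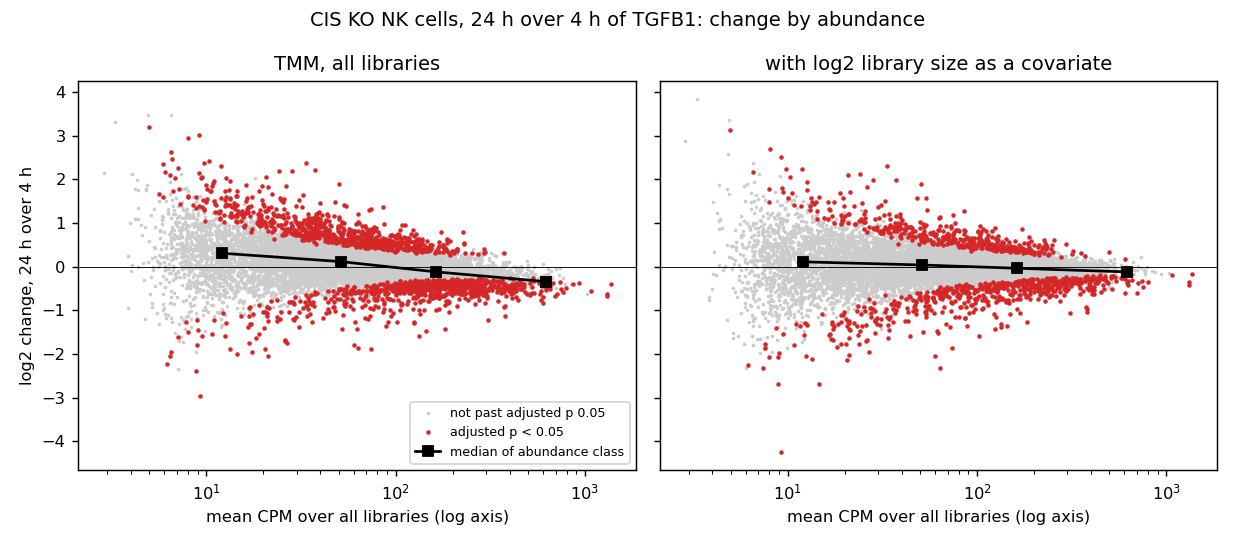
Log2 change at 24 h over 4 h in CIS KO cells against mean CPM over all 31 libraries (log axis), with 1 point for each of 9749 autosomal genes and red for adjusted p under 0.05. The class medians (black squares) run from 0.31 under 20 CPM to -0.34 at 500 CPM or more on the left, and from 0.11 to -0.12 on the right, where library size is a covariate.

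Among the 15 genes with the largest rises (means of at least 5 CPM in a group and libraries that did not overlap), 11 were also called with the depth covariate and 8 in the depth-matched libraries. One of them was Itgae (chr11:73090505-73147449, GRCm38.p6), which encodes the CD103 integrin chain of tissue-resident lymphocytes. Itgae stood at 82.1, 54.6, 56.1 and 31.3 CPM in the 4 libraries at 24 h, against 16.6, 9.51, 8.23 and 12.4 CPM at 4 h and 2.76, 7.42, 1.96 and 2.77 CPM in unstimulated cells. Every 24 h library lay above every 4 h library, and the 24 h libraries spread over a wide range (log2 change 2.19 ± 0.32, adjusted p = 1.7e-05). The change was 2.13, adjusted p = 8.24e-05 with the depth covariate and 1.73, adjusted p = 0.023 in the depth-matched libraries, and adjusted p ran over 1.43e-10 to 0.023 in all alternatives tried. In WT cells Itgae reached 101 ± 23.4 CPM at 24 h (SD, n = 4) against 7.52 CPM in both libraries at 4 h. In TGFBRII KO cells it was 2.05 ± 1.91 CPM at 24 h and 2.05 ± 0.528 CPM at 4 h (SD, n = 3 each). These TGFBRII KO levels rest on very few counts in each library, so the change between them is poorly measured. The difference of the 24 h over 4 h change in CIS KO cells from that in WT cells was -1.54 ± 0.65, adjusted p = 0.567, and from that in TGFBRII KO cells 2.23 ± 1.06, adjusted p = 0.234, so neither difference passed the test.

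Some genes that rose had lower means at 4 h than in unstimulated cells. Igsf8, a cell surface immunoglobulin superfamily protein, had 41, 39.8, 39 and 36.6 CPM at 24 h and 12.7, 7.13, 6.18 and 4.94 CPM at 4 h, beside 35.9, 18.6, 19.6 and 33.3 CPM in unstimulated cells. Igsf8 changed by 2.18 ± 0.29 on the log2 scale (adjusted p = 4.3e-06). The 24 h libraries lay close together, all above the 4 h and the unstimulated libraries. Dusp7, a phosphatase that switches off MAP kinases, had 32.5, 38.4, 39 and 22.6 CPM at 24 h and 7.64, 16.6, 10.3 and 2.47 CPM at 4 h, beside 52.5, 53.8, 47.1 and 47.2 CPM in unstimulated cells. Dusp7 changed by 1.90 ± 0.29 on the log2 scale (adjusted p = 3.46e-05). Its 24 h libraries lay above the 4 h libraries and below the unstimulated ones. Btbd11 was 27.2 ± 9.13 CPM at 24 h and 5.84 ± 3.08 CPM at 4 h, beside 20.5 ± 5.03 CPM in unstimulated cells (SD, n = 4 each; log2 change 2.37 ± 0.37, adjusted p = 4.91e-05). Bcl11b, a T-lineage transcription factor counted among the T cell markers, was 51.9 ± 15.5 CPM at 24 h and 17.6 ± 11 CPM at 4 h, beside 66.7 ± 28.5 CPM in unstimulated cells (1.36 ± 0.30, adjusted p = 0.0023). Tspan32, a tetraspanin of blood cells, had 32 counts over the 4 libraries at 24 h and 2 counts at 4 h (adjusted p = 0.00288). In the depth-matched libraries Bcl11b had an adjusted p of 0.189 (range over all alternatives 9.63e-07 to 0.189) and Tspan32 one of 0.348 (0.00134 to 0.348), and neither passed. Tspan32 was also not called without replicate 2 at 24 h. Among the 7 T cell markers tested, Bcl11b alone rose and Trac alone fell (log2 change -0.85, adjusted p = 0.0316). In the depth-matched libraries the fall of Trac was called (-1.60, adjusted p = 0.0191, range 0.00181 to 0.188).

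Means above the unstimulated level at 24 h were also seen for Nfia, Matk, Ccdc74a and Rnase6, and Nfia too was lower at 4 h than in unstimulated cells. Nfia, a transcription factor of the nuclear factor I family, had 58, 67.4, 65.5 and 31.3 CPM at 24 h and 15.3, 14.3, 12.4 and 4.94 CPM at 4 h, beside 30.4, 18.6, 23.6 and 33.3 CPM in unstimulated cells. Nfia changed by 2.21 ± 0.28 on the log2 scale (adjusted p = 1.77e-06). The lowest 24 h library lay within the range of the unstimulated ones, and all 4 lay above the 4 h libraries. Matk, a kinase that phosphorylates SRC family kinases at their inhibitory site, had 24.1, 19.6, 21.8 and 24.4 CPM at 24 h and 3.82, 7.13, 4.12 and 2.47 CPM at 4 h, beside 2.76, 0, 0 and 2.77 CPM in unstimulated cells. Matk changed by 2.31 ± 0.47 on the log2 scale (adjusted p = 0.000989). Ccdc74a and Rnase6, a secreted antimicrobial ribonuclease, had 0 counts in the 4 unstimulated libraries and rose to 33.3 ± 7.66 and 24.4 ± 8.81 CPM at 24 h, against 6.35 ± 1.6 and 5.26 ± 4.49 CPM at 4 h (SD, n = 4 each; log2 changes 2.43 and 2.37, adjusted p = 0.00018 and 0.00137). Mpv17l, a membrane protein related to MPV17, had 21.2, 29, 23.4 and 15.7 CPM at 24 h and 2.55, 2.38, 4.12 and 2.47 CPM at 4 h (log2 change 2.94 ± 0.43, adjusted p = 1.84e-05). The other 6 of the 15, Fmnl2, Acvr1c, Slc18a1, Nupr1l, Carmil1 and Thrb, had means of 9.27 ± 3.78, 14.7 ± 5.6, 12.9 ± 5.62, 14.3 ± 6.42, 9.73 ± 3.04 and 10.2 ± 2.85 CPM at 24 h, against 1.11 ± 1.29, 2.17 ± 1.59, 2.66 ± 1.59, 2.71 ± 2.16, 1.55 ± 1.88 and 2.54 ± 2.27 CPM at 4 h. In the depth-matched libraries 5 of these 6 were tested and none passed the threshold. Fmnl2 was not called without replicate 2 at 24 h, nor Carmil1 and Thrb when any of several libraries was left out. Acvr1c encodes the type I receptor ALK7 of the TGF-beta superfamily.

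The members of the TGF-beta pathway itself moved in both directions. Of 13 ligand, receptor and signal-carrying SMAD genes tested, 4 rose (Tgfbr1, Smad5, Tgfb3 and Smad2) and 1 fell (Tgfb1), with a median log2 change of 0.42 against 0.02 over all genes. Tgfbr1, the type I receptor kinase, had 120.3, 128, 85.8 and 136 CPM at 24 h and 84.1, 64.2, 65.9 and 66.7 CPM at 4 h. Tgfbr1 changed by 0.72 ± 0.17 on the log2 scale (adjusted p = 0.00369). Tgfb3, a ligand, had 146, 123, 139 and 143 CPM at 24 h and 90.4, 99.8, 107 and 79.1 CPM at 4 h, beside 11, 14.8, 9.82 and 12.5 CPM in unstimulated cells. Tgfb3 changed by 0.53 ± 0.13 on the log2 scale (adjusted p = 0.00459). The ligand Tgfb1 went the other way, with 18.4, 22.3, 14 and 15.7 CPM at 24 h and 48.4, 45.2, 39.1 and 39.5 CPM at 4 h, beside 11, 14.8, 11.8 and 19.4 CPM in unstimulated cells. Tgfb1 changed by -1.24 ± 0.26 on the log2 scale (adjusted p = 0.00167). The groups at 24 h and 4 h did not overlap for any of the 3 genes, and Tgfb1 at 24 h lay near its unstimulated level while Tgfb3 lay far above its own. The receptor gene Tgfbr2 did not pass the test (-0.18 ± 0.12, adjusted p = 0.317). With the covariate 2 of the 13 rose and 2 fell, and in the depth-matched libraries 0 rose and Tgfb1 fell (-1.57, adjusted p = 0.0244, range 0.000478 to 0.0244). Without replicate 2 at 24 h, 2 of the 13 rose, and Smad2 and Smad5 were not called.

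Among feedback inhibitors and SMAD co-repressors, 3 of 11 tested fell (Tgif1, Pmepa1 and Ski) and 0 rose, with a median of -0.16. Over all genes 7.68% fell. Tgif1, a homeobox co-repressor of SMAD2, had 69.3, 60, 65.5 and 57.4 CPM at 24 h and 106, 95.1, 98.8 and 109 CPM at 4 h, beside 52.5, 50.1, 55 and 58.3 CPM in unstimulated cells, so the 24 h libraries lay near the unstimulated range. Tgif1 changed by -0.70 ± 0.11 on the log2 scale (adjusted p = 5.35e-05). Pmepa1, a membrane protein that holds SMADs away from the receptor, had 494, 402, 458 and 437 CPM at 24 h and 569, 679.9, 699.9 and 667 CPM at 4 h, beside 19.3, 18.6, 25.5 and 25 CPM in unstimulated cells. Pmepa1 changed by -0.55 ± 0.16 on the log2 scale (adjusted p = 0.0165). It stayed far above its unstimulated level at both times. The co-repressor Ski was 448 ± 36.3 CPM at 24 h and 543 ± 41.1 CPM at 4 h (SD, n = 4 each; log2 change -0.28 ± 0.10, adjusted p = 0.0442). It missed the threshold with the depth covariate (adjusted p = 0.0813, range 0.0186 to 0.442). With the covariate and in the depth-matched libraries 2 of the 11 fell each time, and Pmepa1 was not called in the depth-matched libraries. Without replicate 3 at 4 h, 1 of the 11 fell, and Pmepa1 was not called. Smad7 and Skil, added after their values were seen, were 96.8 ± 27.8 and 307 ± 20.7 CPM at 24 h against 118 ± 13.3 and 344 ± 24.4 CPM at 4 h, and neither passed the test (adjusted p = 0.326 and 0.292).

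**Figure D2:**
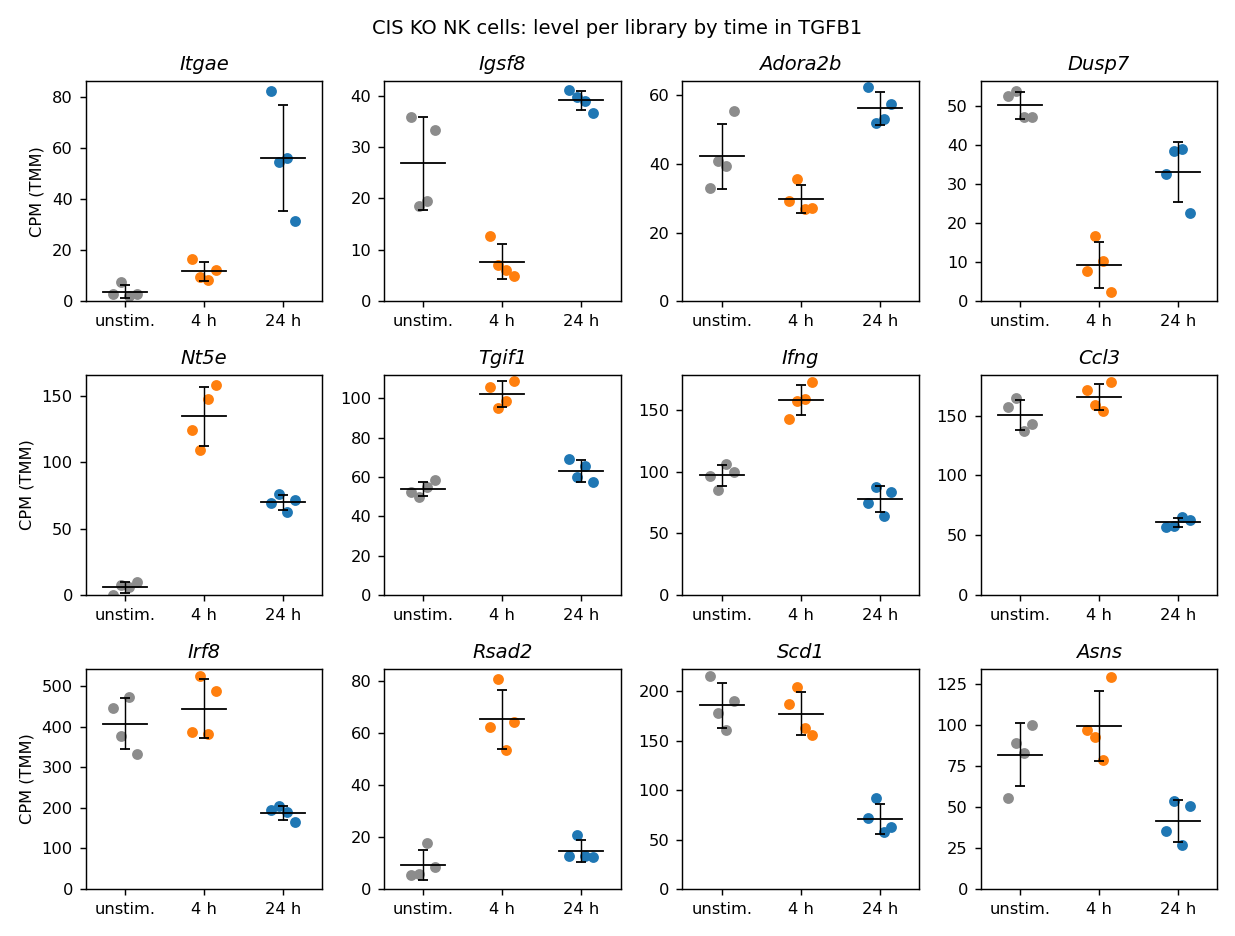
CPM (TMM-scaled, linear axis from 0) of 12 genes in CIS KO cells, unstimulated and after 4 h and 24 h of TGFB1, with 1 point per library, the mean as a line and the SD as bars (n = 4 each). Itgae is at 31.3 to 82.1 CPM at 24 h with every 4 h library at or under 16.6 CPM, while Nt5e and Tgif1 are highest at 4 h and Igsf8 and Dusp7 lowest at 4 h.

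The genes of tissue residency did not move as a block: 3 of 16 tested rose (Itgae, Tnfsf10 and Inpp4b) and 5 fell (Nt5e, Rgs1, Rgs2, Prdm1 and Cd69), with a median of -0.14. Nt5e (chr9:88327609-88372089, GRCm38.p6), which encodes CD73, the enzyme that makes extracellular adenosine from AMP, had 69.3, 76.2, 62.4 and 71.4 CPM at 24 h and 124, 109, 148 and 158 CPM at 4 h, beside 0, 7.42, 5.89 and 9.71 CPM in unstimulated cells. Nt5e changed by -0.92 ± 0.16 on the log2 scale (adjusted p = 0.000205). The 24 h libraries were all under the 4 h libraries and all far above the unstimulated ones, and the fall was also called in the depth-matched libraries (adjusted p = 0.0139, range 3.09e-06 to 0.0139). Rgs1 and Rgs2, which shorten G protein signals, were 190.2 ± 28 and 125 ± 17.3 CPM at 24 h against 325 ± 31.8 and 196 ± 28.1 CPM at 4 h (SD, n = 4 each; log2 changes -0.79 and -0.64, adjusted p = 0.00251 and 0.000331). The death ligand gene Tnfsf10, which encodes TRAIL, rose to 207, 156, 168 and 198 CPM at 24 h, against 144, 92.7, 128 and 146 CPM at 4 h (log2 change 0.48 ± 0.12, adjusted p = 0.00729), without overlap. With the covariate 2 of the 16 genes rose and 4 fell. In the depth-matched libraries Itgae alone rose and Nt5e alone fell, so that Rgs1, Rgs2, Prdm1 and Tnfsf10 lost their calls there. Of the 16 genes, 1 rose without replicate 2 at 4 h, and Tnfsf10 was not called. Of the 10 purine signalling genes tested, Nt5e and Entpd1 (CD39, log2 change -0.48 ± 0.14, adjusted p = 0.0206) fell and Adora2b, an adenosine receptor, rose. Adora2b had 62.3, 51.9, 53 and 57.4 CPM at 24 h and 29.3, 35.7, 26.8 and 27.2 CPM at 4 h, without overlap. Adora2b changed by 0.91 ± 0.22 on the log2 scale (adjusted p = 0.00474). Neither Adora2b nor Entpd1 was called in the depth-matched libraries, where their log2 changes were 0.96 and -0.55, no smaller than with all libraries. Entpd1 was also not called without replicate 3 at 24 h or replicate 2 or 4 at 4 h.

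Of 13 genes of circulating mature NK cells, 7 fell and 0 rose, with a median of -0.48; 6 fell with the covariate and 2, Eomes and Cd27, in the depth-matched libraries. Eomes, a T-box factor of mature NK cells, had 309.9, 328, 292 and 269.8 CPM at 24 h and 447, 530.1, 409.7 and 452 CPM at 4 h (log2 change -0.60 ± 0.10, adjusted p = 6.67e-05). The groups did not overlap, and 24 h lay below the 425, 373, 420.2 and 384 CPM of unstimulated cells. The tumour necrosis factor receptor gene Cd27 (-0.91 ± 0.17, adjusted p = 0.000398), the mast cell protease gene Cma1 (-1.19 ± 0.29, adjusted p = 0.00541), Ly6c2 (-0.72 ± 0.15, adjusted p = 0.0011) and Spn, which encodes CD43 (-0.49 ± 0.11, adjusted p = 0.00244), fell as well. The integrin chain genes Itgam (CD11b, -0.59 ± 0.18, adjusted p = 0.0215) and Itgal (CD11a) fell with overlapping libraries, and Itgam was not called without replicate 1 at 24 h or replicate 1 or 3 at 4 h. Their shared partner Itgb2 had 126, 108, 117 and 134 CPM at 24 h and 195, 240.1, 216 and 252 CPM at 4 h, without overlap. Itgb2 changed by -0.90 ± 0.11 on the log2 scale (adjusted p = 7.74e-07; -0.74, adjusted p = 1.1e-06 with the covariate, range 2.76e-09 to 0.00651).

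Transcription factors of NK and innate lymphoid identity fell in 11 of 28 cases and rose in 0, with a median of -0.33; 12 fell with the covariate and 7 in the depth-matched libraries. Irf8, a factor that NK cells need for their antiviral expansion in mice, had 194, 204, 189 and 164 CPM at 24 h and 386, 525, 381 and 487 CPM at 4 h, beside 445, 378, 473 and 333 CPM in unstimulated cells. Irf8 changed by -1.22 ± 0.15 on the log2 scale (adjusted p = 7.38e-07). All 4 libraries at 24 h lay under all libraries of the other groups. Ets1, a regulator of NK development, was 276 ± 26.2 CPM at 24 h and 452 ± 12.4 CPM at 4 h (-0.71 ± 0.10, adjusted p = 1.7e-05). Nfil3, which NK lineage commitment requires, was 113 ± 6.88 and 186 ± 12.7 CPM (-0.72 ± 0.11, adjusted p = 3e-05; SD, n = 4 each). Maf, a bZIP factor, fell as well (-1.03 ± 0.19, adjusted p = 0.000391). Zbtb32 (chr7:30589680-30602819, GRCm38.p6), which is not in that list and encodes a zinc finger repressor that permits NK proliferation during infection, had the strongest test among the 15 largest falls. Zbtb32 stood at 32.5, 35.1, 24.9 and 34.8 CPM at 24 h and 113, 149.8, 140 and 76.6 CPM at 4 h, beside 63.5, 81.6, 102 and 99.9 CPM in unstimulated cells. Zbtb32 changed by -1.88 ± 0.20 on the log2 scale (adjusted p = 1.57e-07; -2.06, adjusted p = 7e-05 in the depth-matched libraries, range 6.56e-24 to 7.86e-05).

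Of 15 secreted cytokine and chemokine genes tested, 7 fell and 0 rose (median -0.43), with 5 falling under the covariate and 3 in the depth-matched libraries. Ifng, the interferon gamma gene, had 75, 87.7, 63.9 and 83.6 CPM at 24 h and 143, 157, 159 and 173 CPM at 4 h, beside 96.7, 85.3, 106 and 99.9 CPM in unstimulated cells. Ifng changed by -0.98 ± 0.13 on the log2 scale (adjusted p = 4.51e-06). The chemokine gene Ccl3 had 56.6, 58, 65.5 and 62.7 CPM at 24 h and 171, 159, 154 and 178 CPM at 4 h, beside 157, 165, 137 and 143 CPM in unstimulated cells. Ccl3 changed by -1.46 ± 0.17 on the log2 scale (adjusted p = 3.22e-07). For both genes every 24 h library lay below every 4 h library, and 4 h lay above the unstimulated range for Ifng. Ccl9 was 4.58 ± 1.96 CPM at 24 h and 16.4 ± 11.6 CPM at 4 h, far below the 80.7 ± 17 CPM of unstimulated cells at both times (SD, n = 4 each; log2 change -1.86 ± 0.49, adjusted p = 0.00883). Its groups overlapped between 24 h and 4 h, and it was not called without replicate 1 at 4 h. Of the 15 genes, 4 fell without replicate 2 at 24 h.

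Of 20 cytotoxic granule and death ligand genes, 9 fell and Tnfsf10 rose (median -0.53). This group is rich in abundant transcripts and moved with the depth setting: with the covariate 7 fell, 3 rose and the median was -0.14, and in the depth-matched libraries 2 fell, 0 rose and the median was -0.11. Prf1, the perforin gene, had 157, 117, 74.8 and 88.8 CPM at 24 h and 181, 228, 185 and 229.8 CPM at 4 h, beside 296, 226, 271 and 199.8 CPM in unstimulated cells. Prf1 changed by -0.87 ± 0.17 on the log2 scale (adjusted p = 0.000517; -1.16, adjusted p = 0.00186 in the depth-matched libraries, range 9.66e-09 to 0.01). Rab27a, which docks granules at the membrane, was 147 ± 15.9 CPM at 24 h and 235 ± 21.2 CPM at 4 h (SD, n = 4 each; -0.67 ± 0.14, adjusted p = 0.00132). These were the 2 genes of the list that fell in the depth-matched libraries. Serpinb9, a granzyme B inhibitor (-0.48 ± 0.12, adjusted p = 0.00704), and Stx11, a syntaxin of granule release (-0.55 ± 0.14, adjusted p = 0.00874), fell as well. Gzmd, Gzme and Gzmf had log2 changes of -0.77, -0.76 and -0.70, and since they are near-identical copies their counts may be split among them. Of the 20 genes, 4 fell without replicate 2 at 24 h, 4 without replicate 2 at 4 h and 5 without replicate 4 at 4 h.

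Receptors changed in both directions. Havcr2, the checkpoint receptor TIM-3, had 90.6, 127, 104 and 88.8 CPM at 24 h and 189.8, 212, 218 and 225 CPM at 4 h, beside 193, 219, 263 and 189 CPM in unstimulated cells. Havcr2 changed by -0.98 ± 0.14 on the log2 scale (adjusted p = 8.49e-06). The inhibitory receptor gene Lilrb4a had 36.8, 51.2, 40.5 and 20.9 CPM at 24 h and 79, 71.3, 74.1 and 89 CPM at 4 h. Lilrb4a changed by -0.96 ± 0.18 on the log2 scale (adjusted p = 0.000512), and neither receptor gene overlapped between the times. Cd96, a receptor for nectin-family ligands, rose to 346 ± 33.3 CPM at 24 h against 259.6 ± 22.9 CPM at 4 h (0.41 ± 0.10, adjusted p = 0.00436). The activating receptor genes Cd226 (0.89 ± 0.27, adjusted p = 0.0212) and Ncr1, which encodes NKp46 (0.45 ± 0.13, adjusted p = 0.0139), rose too. Ncr1 at 121 ± 13.7 CPM nevertheless remained below the 219.8 ± 15.7 CPM of unstimulated cells (SD, n = 4 each). Neither Cd226 nor Ncr1 passed in the depth-matched libraries (adjusted p = 0.47, range 0.0117 to 0.47, and 0.126, range 0.00195 to 0.126). Neither was called without replicate 2 at 4 h. Of 14 inhibitory receptor genes 3 fell (Havcr2, Lilrb4a and Entpd1) and 1 rose, and of 19 activating receptor genes 3 fell and 2 rose. Over all genes 7.68% fell and 7.83% rose. With the covariate 4 fell and 1 rose in each list, and in the depth-matched libraries 2 fell in each, with 1 inhibitory and 0 activating receptor genes rising.

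Of 24 genes tested of the interleukin 15 pathway, which CIS restrains, 8 fell at 24 h and 1 rose (Stat5a), with a median of -0.34. Over all genes 7.68% fell. With the covariate 7 of the 24 fell, and in the depth-matched libraries 3. The change was called different from that in WT cells for 0 of the 24 (median difference -0.09), and for 1 with the covariate. In WT cells 1 of the 24 fell and 0 rose (median -0.17). With 2 WT libraries at 4 h and genotype tied to sex, this comparison cannot show whether these falls depend on CIS. Il2ra, the high-affinity interleukin 2 receptor chain, had 52.4, 76.9, 43.7 and 34.8 CPM at 24 h and 115, 124, 105 and 96.4 CPM at 4 h. Il2ra changed by -0.96 ± 0.19 on the log2 scale (adjusted p = 0.000749). Pim1, a kinase gene induced by STAT5, had 102, 97.8, 104 and 81.8 CPM at 24 h and 139, 178, 156 and 178 CPM at 4 h. Pim1 changed by -0.72 ± 0.12 on the log2 scale (adjusted p = 6.67e-05). Neither gene overlapped between the times. The survival genes Bcl2 (-0.46 ± 0.09, adjusted p = 0.000765) and Mcl1 (-0.43 ± 0.12, adjusted p = 0.0115) fell, the first to a level that stayed above the unstimulated one, 395 ± 36.5 against 334 ± 27.2 CPM. Of 17 survival and death genes of the BCL2 family list, 7 fell and 0 rose, with 4 falling under the covariate and 3 in the depth-matched libraries, where Mcl1 was not called. Bcl2l11, which encodes the death inducer BIM, was 467 ± 47.5 CPM at 24 h and 712 ± 36.1 CPM at 4 h, beside 442 ± 5 CPM in unstimulated cells (SD, n = 4 each; -0.61 ± 0.10, adjusted p = 8.15e-05). Pro-survival and pro-death members fell together. Without replicate 2 at 24 h, 4 of the 24 interleukin 15 pathway genes and 4 of the 17 survival genes fell, and Mcl1 was not called. Of the 24, 5 fell without replicate 2 or replicate 4 at 4 h.

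Of 20 interferon response genes 5 fell and 0 rose; 4 fell with the covariate and 2, Rsad2 and Gbp3, in the depth-matched libraries. Rsad2, an antiviral enzyme induced by interferon, had 12.7, 20.9, 12.5 and 12.2 CPM at 24 h and 62.4, 80.8, 53.5 and 64.3 CPM at 4 h, beside 5.52, 5.57, 17.7 and 8.32 CPM in unstimulated cells. Rsad2 changed by -2.04 ± 0.26 on the log2 scale (adjusted p = 1.97e-06). Gbp3, an interferon-induced guanylate-binding protein, had 42.5, 68.1, 37.4 and 31.3 CPM at 24 h and 129.9, 97.5, 126 and 109 CPM at 4 h, beside 38.7, 39, 33.4 and 31.9 CPM in unstimulated cells. Gbp3 changed by -1.26 ± 0.17 on the log2 scale (adjusted p = 4.3e-06). Both genes were highest at 4 h without overlap. The other 3 were Zbp1 (-1.25 ± 0.21, adjusted p = 0.000119), Bst2 and Irf1, of which Bst2 and Irf1 overlapped between the times and missed the threshold with the covariate (adjusted p = 0.323, range 0.0106 to 0.516, and 0.227, range 0.00955 to 0.553). Of the 20, 3 fell without replicate 2 at 24 h or replicate 2, 3 or 4 at 4 h. Atf3, a stress-induced transcription factor, was 3.06 ± 1.88 CPM at 24 h and 16.2 ± 6.81 CPM at 4 h (SD, n = 4 each; -2.22 ± 0.49, adjusted p = 0.0023). Of 22 immediate early and MAP kinase feedback genes 6 fell, Jun (-0.52 ± 0.11, adjusted p = 0.00148) and Klf6 (-0.55 ± 0.10, adjusted p = 0.000368) among them, and Dusp7 rose. With the covariate 5 of these fell, and in the depth-matched libraries Jun and Klf6 alone. Of the 22, 3 fell without replicate 2 or replicate 4 at 4 h. Ankrd37, a target of low-oxygen signalling, had 35.4, 34.4, 28.1 and 26.1 CPM at 24 h and 116, 76.1, 129.7 and 114 CPM at 4 h (log2 change -1.79 ± 0.27, adjusted p = 2.4e-05). It fell to just under its unstimulated 41.4, 42.7, 53 and 36.1 CPM, while Bnip3l, a mitophagy receptor gene of the same list, rose (0.51 ± 0.13, adjusted p = 0.00719). Kdm6b, an H3K27 demethylase, was 65.4 ± 12.8 CPM at 24 h and 124 ± 6.12 CPM at 4 h (-0.95 ± 0.19, adjusted p = 0.00101).

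Fatty acid genes fell in 6 of 15 cases and rose in 0 (median -0.24), with 5 falling under the covariate and 2 in the depth-matched libraries. Scd1 (chr19:44394450-44407709, GRCm38.p6), the stearoyl-CoA desaturase that makes monounsaturated fatty acids, had 72.2, 91.7, 57.7 and 62.7 CPM at 24 h and 187, 204, 163 and 156 CPM at 4 h, beside 215, 178, 161 and 190.1 CPM in unstimulated cells. Scd1 changed by -1.26 ± 0.16 on the log2 scale (adjusted p = 1.77e-06). Scd2, a second desaturase, had 70.8, 95.7, 39 and 22.6 CPM at 24 h and 167, 159, 156 and 129 CPM at 4 h. Scd2 changed by -1.26 ± 0.23 on the log2 scale (adjusted p = 0.000271). Both were called in the depth-matched libraries as well (adjusted p = 0.000126, range 3.85e-17 to 0.000191, and 2.45e-05, range 6.44e-16 to 0.00858). Fads2, the delta-6 desaturase, was 5.16 ± 1.5 CPM at 24 h and 19.5 ± 8.59 CPM at 4 h (-1.75 ± 0.42, adjusted p = 0.00439). Of 24 genes of ATF4 targets, serine-folate metabolism and amino acid supply, 10 fell and 0 rose (median -0.41), with 6 falling under the covariate, 4 in the depth-matched libraries and 6 without replicate 2 at 24 h. Asns, asparagine synthetase, had 35.4, 53.3, 26.5 and 50.5 CPM at 24 h and 96.8, 92.7, 78.2 and 129 CPM at 4 h, without overlap. Asns changed by -1.18 ± 0.20 on the log2 scale (adjusted p = 0.000117). Psat1 (-0.76 ± 0.11, adjusted p = 9.83e-06) and Shmt2 (-0.69 ± 0.11, adjusted p = 3.88e-05), enzymes of serine and glycine synthesis, and the glutamine transporter gene Slc1a5 (-0.64 ± 0.12, adjusted p = 0.000331) fell too. Of 22 cholesterol synthesis and uptake genes tested, 2 rose, Hsd17b7 (0.63 ± 0.15, adjusted p = 0.00471) and Sqle (0.48 ± 0.11, adjusted p = 0.00771). Another 2 fell, Fdps (-0.57 ± 0.16, adjusted p = 0.0126) and Stard4 (-0.49 ± 0.12, adjusted p = 0.00624). Over all genes 7.83% rose and 7.68% fell, so these counts are not read as a result on the list. Of the 22 genes, 4 rose and 1 fell with the covariate or without replicate 2 at 24 h. In the depth-matched libraries 1 rose and 1 fell. Fdps was called in none of the 3 settings, and Hsd17b7 was not called in the depth-matched libraries.

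The remaining genes of the 15 largest falls were Bcat1, Dbn1, Tff1, H3c3, Dpys, B3galt5, Glrp1, Npnt, Sap30 and Wdr95. Npnt, an extracellular matrix ligand of integrins, had 8.49, 17.5, 7.8 and 3.48 CPM at 24 h and 35.7, 40.4, 32.9 and 42 CPM at 4 h, without overlap. Npnt changed by -1.75 ± 0.31 on the log2 scale (adjusted p = 0.000205). Dpys, dihydropyrimidinase, was 6.78 ± 4.9 CPM at 24 h and 31.4 ± 5.67 CPM at 4 h (-1.89 ± 0.33, adjusted p = 0.00018). Sap30, a subunit of the SIN3 deacetylase complex, was 13.7 ± 3.34 and 41.3 ± 14.3 CPM (-1.70 ± 0.30, adjusted p = 0.000214; SD, n = 4 each). Bcat1, which starts the breakdown of branched-chain amino acids, had 3 counts over the 4 libraries at 24 h and 17 counts at 4 h (adjusted p = 0.0109). The other 6 of these 10 had log2 changes between -2.39 for Dbn1 and -1.68 for Wdr95. Of the 15, 14 were called with the covariate and 7 in the depth-matched libraries. Tff1 had 2.83, 3.37, 1.56 and 5.22 CPM at 24 h and 7.64, 35.7, 8.23 and 7.41 CPM at 4 h, with 1 library at 4 h far above the other 3, and was called with neither. Bcat1 and Dbn1 were not called without replicate 1 at 4 h, nor B3galt5 and Tff1 without replicate 2 at 24 h.

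Groups of abundant genes moved with the depth setting. Ribosomal protein genes had a median log2 change of -0.38 with 3 of 29 falling, and 0.02 with 1 falling under the covariate; 13 fell without replicate 4 at 24 h and 14 without replicate 1 at 4 h. Glycolysis genes had a median of -0.36 with 5 of 17 falling, and -0.06 with 3 falling under the covariate. Actin, motility and adhesion genes had a median of -0.36 with 7 of 24 falling, and -0.06 with 4 falling under the covariate. Oxidative phosphorylation genes had 1 of 29 rising and 1 falling, and moved either way when a library was left out: 0 rose and 9 fell without replicate 4 at 24 h, 0 rose and 5 fell without replicate 1 at 4 h, and 3 rose and 1 fell without replicate 2 at 24 h. Without replicate 2 at 24 h, or replicate 2 at 4 h, 3 of the glycolysis genes and 3 of the actin, motility and adhesion genes fell. Antigen presentation genes had 4 of 16 falling, and 1 under the covariate. In the depth-matched libraries 0 ribosomal protein, 1 glycolysis, 2 actin, motility and adhesion and 0 antigen presentation genes fell. Mitochondrially encoded RNA, which is not autosomal and was followed as a sign of RNA quality, had 4 of 11 genes falling (median -0.45; -0.29 with the covariate). Its part in the other results was not tested. Among the remaining lists, 5 of 22 heat shock and endoplasmic reticulum chaperone genes, 3 of 16 migration genes, 3 of 16 tumour necrosis factor family genes, 2 of 16 NF-kappaB genes, 2 of 14 p53 targets, 2 of 22 chromatin regulators and 1 of 21 lysosome genes fell, and at most 1 gene of each rose. Over all genes 7.68% fell, and counts this small are not read as results on these lists. Leaving out 1 library moved each of these counts by at most 2 genes. With the covariate 5 lysosome genes rose, against 2 in the depth-matched libraries, and 3 genes of the tumour necrosis factor family.

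**Figure D3:**
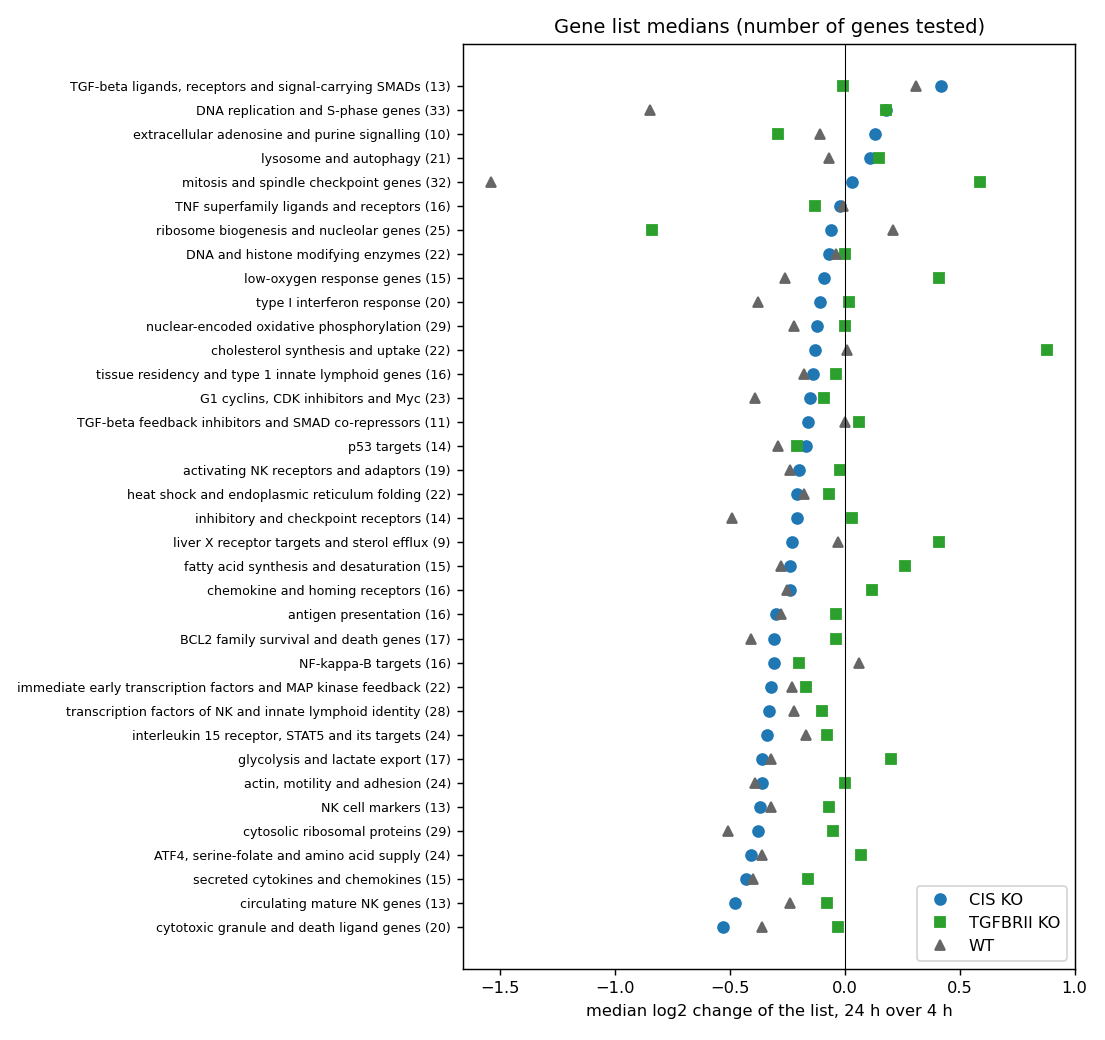
Median log2 change at 24 h over 4 h of 36 gene lists (number of autosomal genes tested in brackets) in CIS KO, TGFBRII KO and WT cells, ordered by the CIS KO median. The CIS KO medians lie between -0.53 (cytotoxic genes) and 0.42 (TGF-beta ligands, receptors and SMADs), and the mitosis list stands at 0.03 in CIS KO cells, 0.59 in TGFBRII KO cells and -1.54 in WT cells.

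The proliferation genes set CIS KO cells apart from WT cells. Between 24 h and 4 h, 0 of 32 mitosis genes tested were called in CIS KO cells by edgeR (4 at an unadjusted p under 0.05) and 0 by DESeq2, with log2 changes between -0.47 and 0.42 and a median of 0.03. In WT cells 30 of the same 32 genes fell, where 4.53% of all autosomal genes fell, with a median of -1.54. The difference between the 2 changes was called for 24 of the 32, all higher in CIS KO cells (median 1.55). Among 33 S-phase genes 4 rose in CIS KO cells (Cdc6, E2f1 and Pold1 among them; median 0.18), 22 fell in WT cells (median -0.85) and 14 differed (median 1.17). Without replicate 2 at 24 h, or replicate 2 or 4 at 4 h, 1 of the 33 rose in CIS KO cells. With the covariate 2 S-phase genes rose and 1 mitosis gene fell, and in the depth-matched libraries 1 and 1. Over all 9749 autosomal genes 97 changes were higher in CIS KO than in WT cells and 5 lower, 0.995% and 0.0513% (1.05% in either direction). Of the 97, 38 were on these 2 lists, which is 39.2% of the higher genes and 58.5% of the 65 listed; 96 of the 97 fell in WT cells, and 6 rose and 0 fell in CIS KO cells.

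The levels show where the difference arose. The 32 mitosis genes summed to 2606 to 3069 CPM at 24 h and 2570.3 to 3211 CPM at 4 h in CIS KO cells, against 1361 to 2016 CPM at 24 h and 4028 to 4370.5 CPM at 4 h in WT cells. Unstimulated cells held 4228 to 4867 CPM in CIS KO and 4761 to 5830.3 CPM in WT. CIS KO cells were thus lower than WT cells at 4 h and higher at 24 h, without overlap at either time. The S-phase genes summed to 2468 to 3055 CPM at 24 h and 2417 to 2635 CPM at 4 h in CIS KO cells, against 1485 to 1999 and 2939 to 3155 CPM in WT cells, with the same order. In bulk RNA, fewer cycling cells and less RNA of these genes per cell cannot be told apart.

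**Figure D4:**
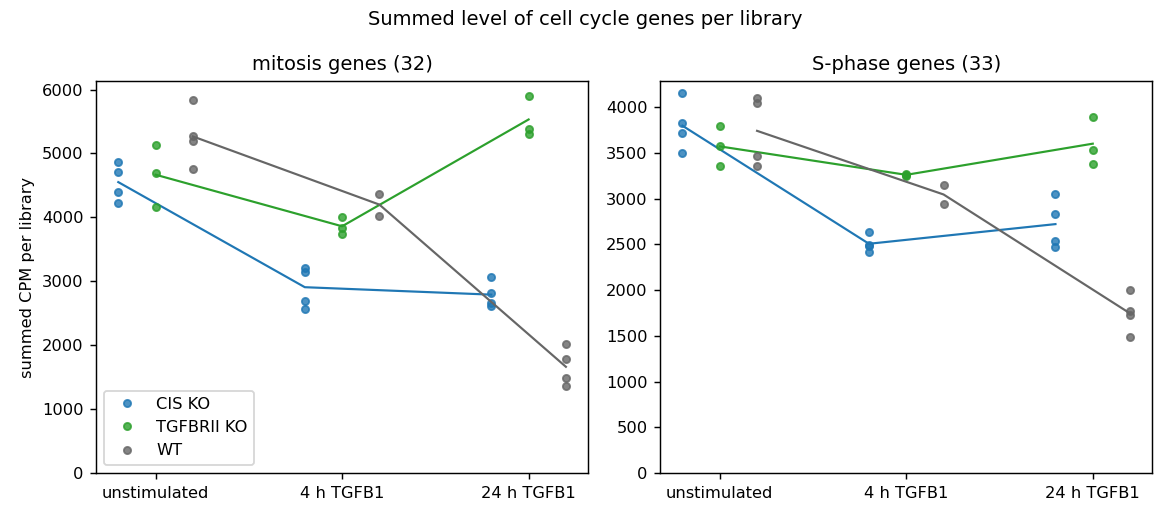
Summed CPM of 32 mitosis genes (left) and 33 S-phase genes (right) per library, in unstimulated cells and after 4 h and 24 h of TGFB1, with 1 point per library and lines joining group means. In CIS KO cells the mitosis genes are at 2606 to 3069 CPM at 24 h and 2570.3 to 3211 CPM at 4 h, against 1361 to 2016 CPM at 24 h and 4028 to 4370.5 CPM at 4 h (2 libraries) in WT cells.

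Single genes followed this course. Nuf2 (chr1:169497934-169531464, GRCm38.p6), a kinetochore subunit, had 21.2, 23.6, 17.2 and 22.6 CPM at 24 h and 24.2, 16.6, 14.4 and 12.4 CPM at 4 h in CIS KO cells, against 6.47 ± 2.73 CPM at 24 h and 43.2 ± 7.97 CPM at 4 h in WT cells (SD, n = 4 and 2). Its CIS KO groups overlapped and its WT groups did not (difference of the changes 3.01 ± 0.40, adjusted p = 2.26e-05). Kif11, a spindle motor, had 62.3, 68.1, 40.5 and 45.3 CPM at 24 h and 90.4, 64.2, 94.7 and 54.4 CPM at 4 h in CIS KO cells, and 19.2 ± 8.85 and 115 ± 30.1 CPM in WT cells (difference 2.14 ± 0.35, adjusted p = 0.000342). Top2a, topoisomerase II alpha, had 386, 427, 332 and 355 CPM at 24 h and 469, 471, 525 and 363 CPM at 4 h in CIS KO cells, and 229 ± 49.2 and 587 ± 7.09 CPM in WT cells (difference 1.08 ± 0.21, adjusted p = 0.00354). For both, the CIS KO means were lower at 24 h without passing the test. Chek1, the DNA damage checkpoint kinase, rose in CIS KO cells, with 22.6, 29, 26.5 and 20.9 CPM at 24 h and 14, 4.75, 12.4 and 12.4 CPM at 4 h (1.15 ± 0.31, adjusted p = 0.0112). It was 7.08 ± 2.7 and 20 ± 7.09 CPM in WT cells (difference 2.79 ± 0.53, adjusted p = 0.00194). Its rise was not called without replicate 2 at 24 h or replicate 2 at 4 h. Differences from WT were also called for Ticrr (3.40), Ska3 (2.84), Esco2 (2.83), H1f5 (2.71), Bub1b (1.16), Tpx2 (1.95) and Cdc6 (2.13), at adjusted p between 0.000129 and 0.0181. Ticrr and Esco2 were not called different without replicate 2 of CIS KO at 24 h.

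The count moved with the WT libraries at 4 h, of which there were 2. Without replicate 4, the deeper of them, 12 changes were higher in CIS KO cells, 3 of 32 mitosis genes and 2 of 33 S-phase genes among them, with list medians still at 1.28 and 0.78. The remaining 4 h library had 297561 counts and was then assumed to vary like the other groups. None of the genes named here for a higher change than in WT was then called. Without replicate 1 instead, 99 changes were higher, 23 of the mitosis genes among them. With the depth covariate 25 mitosis and 14 S-phase genes differed, and in the depth-matched libraries 12 and 6, with 41 genes higher in all.

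Most of the 26 mitosis genes with a RefSeq promoter window (250 bases before to 50 after the start, GRCm38.p6) carried the letters of the cell cycle element known as CHR, searched as TTTGAA or TTCGAA on both strands. It was in 21 of 26 windows (80.8%), against 19.1% of 25748 autosomal windows and 13.9% of the 7757 windows of genes tested. A CCAAT box on either strand was in 20 of 26 (76.9%), against 37.8% of all windows and 39% of those of genes tested. Both together were in 18 (69.2%), against 7.57% and 5.92%. The E2F-type letters TTTGGCGC, TTTCCCGC or TTTGGCGG were in 0 of 26 mitosis windows and in 9 of 26 S-phase windows (34.6%), against 2.15% of all windows and 4.4% of those of genes tested. A match is a description of these letters and not a bound site. Windows of 6 genes that differed from WT are shown 5′ to 3′ in the direction of the gene, to set windows with these letters beside windows without them. Capitals mark the CCAAT and CHR letters on either strand in Top2a, Bub1b and Kif11, which are on the mitosis list, and in Nuf2 and Ska3, which are on neither list. In Chek1, also on neither list, they mark the E2F-type letters.
Nuf2, chr1:169531415-169531714, minus strand: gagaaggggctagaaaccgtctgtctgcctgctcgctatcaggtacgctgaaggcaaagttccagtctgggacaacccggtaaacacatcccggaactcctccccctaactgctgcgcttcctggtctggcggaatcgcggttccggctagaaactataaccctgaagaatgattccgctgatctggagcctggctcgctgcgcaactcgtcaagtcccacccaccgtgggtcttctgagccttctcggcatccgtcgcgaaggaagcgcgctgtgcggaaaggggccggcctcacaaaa
Ska3, chr14:57826114-57826413, minus strand: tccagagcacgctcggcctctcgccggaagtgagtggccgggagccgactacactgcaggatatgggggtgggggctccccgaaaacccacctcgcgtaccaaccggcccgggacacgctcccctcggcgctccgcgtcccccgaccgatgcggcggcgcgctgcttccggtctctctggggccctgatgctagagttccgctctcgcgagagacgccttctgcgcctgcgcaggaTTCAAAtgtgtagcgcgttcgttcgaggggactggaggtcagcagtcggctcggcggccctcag
Top2a, chr11:99024140-99024439, minus strand: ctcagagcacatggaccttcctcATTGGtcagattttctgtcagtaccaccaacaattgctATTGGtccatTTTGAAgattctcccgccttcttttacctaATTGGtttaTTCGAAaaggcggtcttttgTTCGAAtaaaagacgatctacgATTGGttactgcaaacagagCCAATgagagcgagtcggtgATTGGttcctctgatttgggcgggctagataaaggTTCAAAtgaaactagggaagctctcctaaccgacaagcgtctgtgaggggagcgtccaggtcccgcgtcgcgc
Bub1b, chr2:118597961-118598260, plus strand: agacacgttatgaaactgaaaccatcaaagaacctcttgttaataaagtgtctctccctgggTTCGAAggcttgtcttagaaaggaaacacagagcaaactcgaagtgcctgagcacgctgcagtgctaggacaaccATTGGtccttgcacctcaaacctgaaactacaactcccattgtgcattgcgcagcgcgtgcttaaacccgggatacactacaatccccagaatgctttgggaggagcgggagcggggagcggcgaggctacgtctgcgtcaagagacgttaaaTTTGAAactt
Kif11, chr19:37376132-37376431, plus strand: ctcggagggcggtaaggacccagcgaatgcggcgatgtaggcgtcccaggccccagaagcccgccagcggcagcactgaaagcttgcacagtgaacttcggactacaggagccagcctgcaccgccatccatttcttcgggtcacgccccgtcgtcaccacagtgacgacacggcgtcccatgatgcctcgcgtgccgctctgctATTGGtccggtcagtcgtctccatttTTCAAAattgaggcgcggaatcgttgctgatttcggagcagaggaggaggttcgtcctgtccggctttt
Chek1, chr9:36726609-36726908, minus strand: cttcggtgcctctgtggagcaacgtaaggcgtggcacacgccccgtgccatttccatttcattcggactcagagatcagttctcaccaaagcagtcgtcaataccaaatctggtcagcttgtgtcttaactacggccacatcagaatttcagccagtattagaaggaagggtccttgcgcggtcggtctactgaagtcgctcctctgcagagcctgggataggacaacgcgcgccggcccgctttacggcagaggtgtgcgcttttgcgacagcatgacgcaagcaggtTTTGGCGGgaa
The Nuf2 window held neither CCAAT nor CHR letters and the Ska3 window 1 CHR match and no CCAAT box. The Top2a window held 6 CCAAT boxes and 4 CHR letter matches, the Bub1b window 1 and 2, and the Kif11 window 1 and 1.

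Of 23 regulators of the G1 phase tested, 6 fell in CIS KO cells and 0 rose (median -0.15), and 4 fell and 0 rose in WT cells (median -0.39). Those that fell in CIS KO cells included the inhibitors Cdkn1b (-0.64 ± 0.12, adjusted p = 0.000521), Cdkn1a (-0.55 ± 0.11, adjusted p = 0.000896) and Cdkn2b (-0.55 ± 0.14, adjusted p = 0.00558). With the covariate 5 of the 23 fell, and in the depth-matched libraries 2, without Cdkn1a and Cdkn2b. Cdkn1b, the p27 inhibitor, had 109, 125, 120.1 and 73.1 CPM at 24 h and 171, 152, 198 and 161 CPM at 4 h. Its 24 h mean of 107 ± 23.4 CPM was at the unstimulated mean of 107 ± 10.7 CPM (SD, n = 4 each).

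The 5 genes whose change was lower in CIS KO than in WT cells were Pprc1, Ccl3, Xpa, Wdr43 and Nop58. Ccl3 fell in CIS KO cells as given above, and was 92 ± 35.1 CPM at 24 h and 114 ± 3.54 CPM at 4 h in WT cells (SD, n = 4 and 2; difference -1.13 ± 0.27, adjusted p = 0.0181). Pprc1, a coactivator of mitochondrial biogenesis, was 40 ± 9.06 CPM at 24 h and 33.1 ± 7.88 CPM at 4 h in CIS KO cells, and 54.2 ± 10.7 and 11.9 ± 0.886 CPM in WT cells (difference -1.85 ± 0.41, adjusted p = 0.00985). The nucleolar genes Wdr43 and Nop58 had log2 changes of -0.04 and -0.19 in CIS KO cells and 0.68 and 0.42 in WT cells. The DNA repair gene Xpa fell in CIS KO cells (-0.49 ± 0.11, adjusted p = 0.00319; difference from WT -0.78 ± 0.19, adjusted p = 0.0257). None of the 5 was called without replicate 4 of WT at 4 h.

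TGFBRII is the receptor that the ligand needs, and the course of TGFBRII KO cells between 24 h and 4 h differed from that of CIS KO cells at 271 genes with a higher and 273 with a lower change in CIS KO cells (2.78% and 2.8% of 9749). Of 22 cholesterol synthesis and uptake genes, 2 rose and 2 fell in CIS KO cells (median -0.13), and 20 rose in TGFBRII KO cells (median 0.88), where 4.42% of all genes rose and 8.42% changed in either direction. The change was lower in CIS KO cells for 15 of 22 (median difference -1.02). The covariate gave 15 and the depth-matched libraries 10. Stard4, a sterol carrier, was 124 ± 18.4 CPM at 24 h and 177 ± 8.84 CPM at 4 h in CIS KO cells, and 257 ± 15 and 177 ± 10.3 CPM in TGFBRII KO cells (difference -1.03 ± 0.17, adjusted p = 0.000303). Fdps, farnesyl diphosphate synthase, was 108 ± 25.5 and 156 ± 15.2 CPM in CIS KO cells, and 170.2 ± 20.1 and 118 ± 1.95 CPM in TGFBRII KO cells (difference -1.10 ± 0.23, adjusted p = 0.00289).

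The desaturase genes Scd1, Scd2 and Fads2 and 2 of 9 liver X receptor target and sterol efflux genes, Abcg1 and Arl4c, also had a lower change in CIS KO cells. Scd1 was 71.1 ± 15 CPM at 24 h and 177 ± 22.5 CPM at 4 h in CIS KO cells, and 181 ± 46.1 and 109 ± 11.7 CPM in TGFBRII KO cells (SD, n = 4 and 3; difference -1.99 ± 0.23, adjusted p = 1.04e-06). Scd2 (-1.76 ± 0.32, adjusted p = 0.00104), Fads2 (-2.83 ± 0.54, adjusted p = 0.00133), Abcg1, a sterol exporter (-1.47 ± 0.27, adjusted p = 0.00105), and Arl4c (-0.92 ± 0.16, adjusted p = 0.000647) differed likewise, and 5 of 15 fatty acid genes had a lower change in CIS KO cells (5 with the covariate and 3 in the depth-matched libraries). Scd1, Scd2 and Asns had log2 changes of -1.26, -1.26 and -1.18 in CIS KO cells and -1.51, -1.47 and -1.27 in WT cells. They fell in both, and their changes were not called different from WT (adjusted p = 1, 1 and 1).

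Ribosome biogenesis ran the other way. In CIS KO cells 3 of 25 genes fell, namely the nucleolar genes Ncl (-0.61), Npm1 (-0.63) and Mybbp1a (-0.40), with a median of -0.06. In TGFBRII KO cells 20 fell, where 4% of all genes fell (median -0.84), and 15 of 25 changes were higher in CIS KO cells (median difference 0.73). The covariate gave 17 and the depth-matched libraries 6. Nop58, a core protein of small nucleolar ribonucleoproteins, was 245 ± 14 CPM at 24 h and 281 ± 11.5 CPM at 4 h in CIS KO cells, and 229 ± 27.4 and 403 ± 32.1 CPM in TGFBRII KO cells (difference 0.62 ± 0.14, adjusted p = 0.00473). Unstimulated cells had 323 ± 24.1 CPM in CIS KO and 248 ± 10.6 CPM in TGFBRII KO, so that the 4 h level was the lower one in CIS KO cells and the higher one in TGFBRII KO cells.

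Of the 32 mitosis genes, 0 were called in CIS KO cells and 20 rose in TGFBRII KO cells (median 0.59). A lower change was called for 6 of 32 in CIS KO cells. This count was 13 with the covariate, 7 in the depth-matched libraries, 2 without replicate 1 and 3 without replicate 3 of CIS KO at 4 h, and 3 without replicate 2 of TGFBRII KO at 24 h. Bub1b was 83.3 ± 11.7 CPM at 24 h and 99.5 ± 8.37 CPM at 4 h in CIS KO cells, and 146 ± 10.4 and 101 ± 2.74 CPM in TGFBRII KO cells (difference -0.77 ± 0.17, adjusted p = 0.0052). Of 33 S-phase genes 0 were called different in either direction by edgeR or DESeq2.

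Effector and identity genes were among the single genes with such a difference. Rsad2, whose CIS KO values are given above, was 11.4 ± 3.99 CPM at 24 h and 11.4 ± 2.98 CPM at 4 h in TGFBRII KO cells, without the fall seen in CIS KO cells (difference -2.04 ± 0.48, adjusted p = 0.00902). Zbtb32 was 91.1 ± 14.8 and 111 ± 14.8 CPM in TGFBRII KO cells (difference -1.60 ± 0.28, adjusted p = 0.000427). Foxa3, a forkhead factor (chr7:19013283-19023539, GRCm38.p6), was 59.5 ± 5.27 CPM at 24 h and 82.6 ± 6.37 CPM at 4 h in CIS KO cells, and 19.4 ± 3.4 and 3 ± 1.14 CPM in TGFBRII KO cells. Its levels were lowest in TGFBRII KO cells at 4 h (difference -3.12 ± 0.46, adjusted p = 6.6e-05). Itgb2 (-1.11 ± 0.15, adjusted p = 3.02e-05), Ifng (-0.71 ± 0.19, adjusted p = 0.021) and Irf8 (-0.70 ± 0.22, adjusted p = 0.0489) had lower changes in CIS KO cells, as did Maf (-1.08 ± 0.24, adjusted p = 0.00679) and Ccl3 (-0.97 ± 0.22, adjusted p = 0.00706). Igsf8 (1.80 ± 0.40, adjusted p = 0.00578), Dusp7 (1.46 ± 0.35, adjusted p = 0.0105), Adora2b (1.55 ± 0.35, adjusted p = 0.00637) and Nfia (1.43 ± 0.42, adjusted p = 0.0377) had higher ones. The other named genes with the largest differences were Rin2 (-2.76), Cd101 (-2.32), Hrc (-2.20) and Ccl9 (-2.12) on the lower side, and Bend3 (3.94), Fastkd1 (3.54), Rufy3 (3.16), Acvr1c (2.93), Tulp4 (2.84) and Asb13 (2.83) on the higher side, at adjusted p between 0.00106 and 0.0496. Apart from Ccl9 in TGFBRII KO cells, the group means of these 10 genes were at most 27 CPM. Irf8, Nfia, Bend3, Fastkd1, Rufy3 and Acvr1c were not called when any of several libraries was left out. Ifng was not called without replicate 1 of TGFBRII KO at 24 h or at 4 h, Rsad2 without replicate 2 of TGFBRII KO at 24 h, and Maf and Ccl9 without replicate 1 of CIS KO at 4 h.

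**Figure D5:**
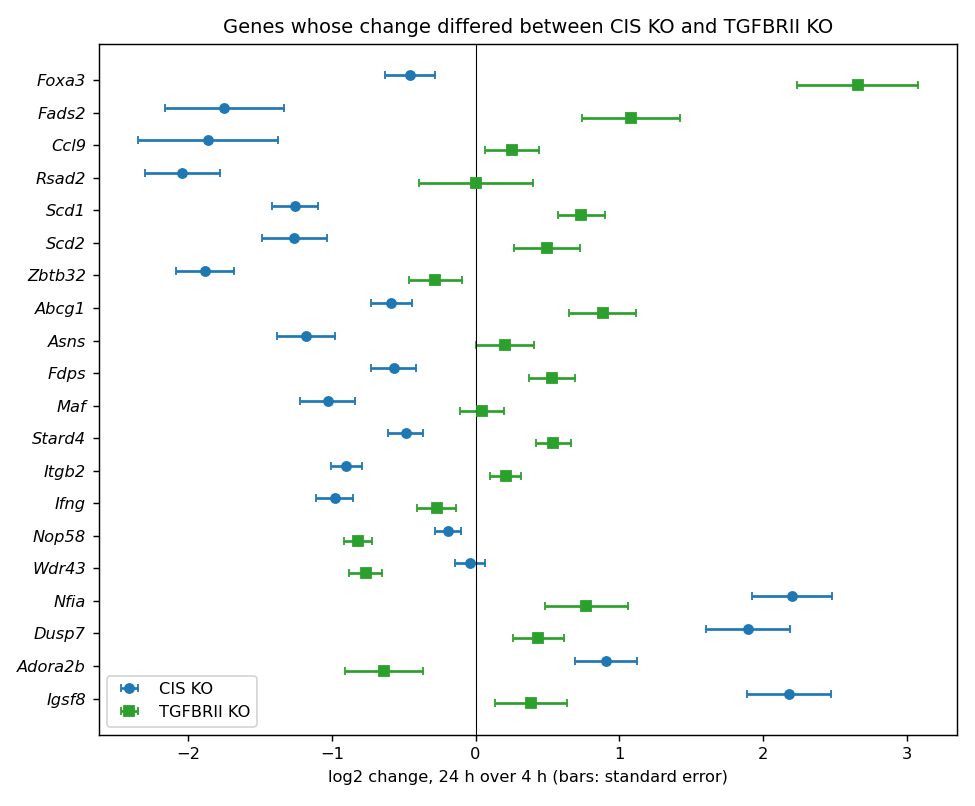
Log2 change at 24 h over 4 h (points) with its standard error (bars) of 20 genes in CIS KO cells and in TGFBRII KO cells. Genes with a lower change in CIS KO cells stand above those with a higher one. Foxa3, Fads2 and Scd1 have negative changes in CIS KO cells and positive ones in TGFBRII KO cells, and Adora2b the reverse.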

How the data were processed

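RNA of sorted mouse NK cells was sequenced in 31 libraries of 3 genotypes and 3 conditions. The deposited values are raw counts per Entrez gene; per the submitters' processing notes, FastQC, Trimmomatic, Subread, featureCounts, Picard and SAMtools were used with mm10, and no source used here gives versions, strand setting or filters. Samples were grouped by the labels. Genes with low counts were removed with filterByExpr over the 9 groups, which left 10275 genes of 27179. All libraries entered 1 fit in edgeR 4.0.16 (R 4.3.3; TMM, quasi-likelihood F-test, group means without a replicate block). P-values were adjusted by Benjamini-Hochberg over all genes tested, with a threshold of 0.05, and printed standard errors are the log2 change divided by the square root of F. Changes are 24 h over 4 h, differences are CIS KO minus WT or minus TGFBRII KO, and CPM are scaled by TMM.

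Gene lists and named genes were chosen with earlier results of these data known. Named were the 15 largest changes each way with a mean of at least 5 CPM and no overlap between libraries. Up to 5 members of each list with the smallest p at 24 h over 4 h in CIS KO cells were named too. So were the largest called differences from WT and from TGFBRII KO cells, and others said to be added after their values were seen. Single genes brought in for the promoters, the lists' counts or the comparisons of genotypes beyond that rule were likewise chosen after their values were seen. Totals of 442036 to 1403005 counts per CIS KO library limit low genes. On simulated counts with the CIS KO design (10072 genes), 43.3% of genes changed 1.5-fold, 71.6% changed 2-fold and 95.5% changed 4-fold were recovered. As a difference from WT cells, 14.9%, 32.8% and 80.3% of these were recovered. As a difference from TGFBRII KO cells, 13.4%, 52.2% and 84.8% were. A difference between genotypes that was not called therefore does not show equal changes. The labels call the samples biological replicates without naming animals or cultures, so p-values measure the spread between these samples. Alternatives were DESeq2 1.42.0, RLE factors, library size alone, library size as a covariate, no filter, only the groups compared, the replicate block, and each library left out; depth-matched libraries and averaged pairs were added after seeing the data. Promoter sequences are from RefSeq (GRCm38.p6), matched by Entrez identifier for the counts of motifs and by symbol for the windows shown. Some genes of the lists are counted but not reported here by name.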

Additional observations from a re-analysis of the deposited data

Results flagged for a closer look

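Of 232 groups of 4 libraries of named genes, 11 had 1 library far from the other 3, where chance gives about 1 in 20. Replicate 2 at 24 h was such a library for Rsad2 (20.9 CPM, others 12.2 to 12.7), Ski (394 CPM, others 459.6 to 471) and Bcl2l11 (396 CPM, others 487 to 496). At 4 h it was replicate 2 for Tff1 (35.7 CPM, others 7.41 to 8.23), Prdm1 (242 CPM, others 208 to 212) and Bcl2 (563 CPM, others 535 to 539). Replicate 1 at 4 h stood apart for Tgfbr1 (84.1 CPM, others 64.2 to 66.7) and Arl4c (329.8 CPM, others 412 to 421), replicate 3 for Mpv17l (4.12 CPM, others 2.38 to 2.55) and Pold1 (57.6 CPM, others 39.5 to 42), and replicate 4 for Cd101 (17.3 CPM, others 26.1 to 26.8).

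The change between 24 h and 4 h differed by edgeR's interaction test between CIS KO and WT cells at 97 genes with a higher and 5 with a lower change in CIS KO cells. The log2 differences of the named genes were 3.40 for Ticrr, 3.01 for Nuf2, 2.84 for Ska3, 2.83 for Esco2, 2.79 for Chek1, 2.71 for H1f5, 2.14 for Kif11, 2.13 for Cdc6, 1.95 for Tpx2, 1.16 for Bub1b and 1.08 for Top2a. On the lower side they were -1.85 for Pprc1, -1.13 for Ccl3, -0.78 for Xpa, -0.71 for Wdr43 and -0.61 for Nop58.

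Between CIS KO and TGFBRII KO cells the change differed at 271 genes with a higher and 273 with a lower change in CIS KO cells. Log2 differences on the lower side were -3.12 for Foxa3, -2.83 for Fads2, -2.76 for Rin2, -2.32 for Cd101, -2.20 for Hrc, -2.12 for Ccl9, -2.04 for Rsad2, -1.99 for Scd1, -1.76 for Scd2, -1.60 for Zbtb32, -1.47 for Abcg1, -1.39 for Asns, -1.11 for Itgb2, -1.10 for Fdps, -1.08 for Maf, -1.03 for Stard4, -0.98 for Kif11, -0.97 for Ccl3, -0.92 for Arl4c, -0.77 for Bub1b, -0.71 for Ifng, -0.70 for Irf8, -0.70 for Psat1, -0.68 for Shmt2 and -0.67 for Top2a. On the higher side they were 3.94 for Bend3, 3.54 for Fastkd1, 3.16 for Rufy3, 2.93 for Acvr1c, 2.84 for Tulp4, 2.83 for Asb13, 1.80 for Igsf8, 1.55 for Adora2b, 1.46 for Dusp7, 1.43 for Nfia, 0.73 for Wdr43 and 0.62 for Nop58.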

How the results depend on the processing

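None of the 169 results on named genes changed direction under any alternative; 88 of 167 lost their call in the depth-matched libraries, 29 of 146 with only the groups compared, 28 of 167 with averaged pairs, 21 with library size as a covariate, 18 with DESeq2, 16 with the replicate block and at most 12 under RLE factors, library size alone or no filter. The cause was not tested. For CIS KO cells at 24 h over 4 h, the main counts were 763 higher and 749 lower. DESeq2 gave 355 and 557, library size alone 1148 and 490, and the covariate 417 and 612. The depth-matched libraries gave 143 and 240, and averaged pairs 368 and 433. Only the groups compared gave 340 and 358, with fewer samples in the fit and a spread taken from those groups alone. The replicate block with the covariate gave 403 and 604. Leaving out 1 library gave 409 to 806 higher and 479 to 968 lower. For CIS KO minus WT, 41 were higher and 10 lower in the depth-matched libraries and 52 and 0 with only the groups compared; 3 were lower with DESeq2, averaged pairs, no filter or the replicate block, and 13 with the block and the covariate. Leaving out 1 library gave 12 to 101 higher and 0 to 7 lower. For CIS KO minus TGFBRII KO, 115 were higher and 168 lower with DESeq2, 70 and 139 in the depth-matched libraries, 174 higher with averaged pairs, 348 and 191 with library size alone, and 225 and 365 with the covariate; leaving out 1 library gave 159 to 315 and 156 to 354. With the replicate block 594 genes were higher and 627 lower in CIS KO cells. Same-numbered CIS KO libraries at 24 h and 4 h had deviations that correlated at -0.053, -0.083, 0.101 and 0.25. Pairs with different numbers ran from -0.267 to 0.359, and not every sample correlated best with its own number. So few correlations in shallow libraries cannot show whether same-numbered samples share an animal or culture, and the labels do not say. Depth limits genes with few counts, whose absence from the calls shows no lack of change.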
